A study of Bos taurus with 6 samples.

Results

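The SLC25 family holds the carriers that move metabolites across the inner mitochondrial membrane, and its genes were described here in bovine vaginal epithelial cells (BVECs) incubated with Lactobacillus strain SQ0048. Members were all rows of the deposited expression table whose gene name begins with SLC25A and whose mean over the 6 libraries was at least 0.5 FPKM. FPKM is a fragment count divided by the length of the transcript and by the fragments mapped in the library, so that levels can be set side by side between genes. The rule gave 35 features under 31 gene symbols, out of 43 such rows and of 18014 features in the whole table. SLC25A14, SLC25A23, SLC25A26 and SLC25A37 were each listed as 2 features, and in each of these 4 cases 1 of the features had no Ensembl transcript. Such a pair shares a symbol, and whether both features come from the same transcript was not tested.

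Carriers of this family are small proteins of the inner mitochondrial membrane that exchange or cotransport nucleotides, phosphate, carboxylates, amino acids, cofactors and metals between the cytosol and the mitochondrial matrix. They are encoded in the nucleus, made in the cytosol and inserted into the inner membrane by the TIM22 import route. Some work outside this setting: SLC25A17 is a carrier of peroxisomes, and SLC25A46 sits in the outer mitochondrial membrane, where it takes part in mitochondrial shape and fusion. In epithelial cells the adenine nucleotide and phosphate carriers serve oxidative ATP synthesis, while calcium-stimulated carriers adjust the nucleotide pool and the aspartate and glutamate traffic of the matrix.

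The cells were primary cultures from vaginal tissue of healthy young cows. Treated cultures received the SQ0048 strain at 1000000000 CFU/ml and were kept with it for 4 h, and control cultures received medium without bacteria. Each group had 3 libraries, called biological replicates by the study, without a statement that each came from its own culture or animal. The p-values thus measure the spread between these libraries, which may be technical. In bulk RNA, fewer cells of a type and less RNA per cell cannot be told apart.

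The FPKM of a library summed to between 343933 and 378772, and the read depth behind each value is unknown. Between 1876 and 1992 features were at 0 in a library. All 12 epithelial markers looked for were found, led by the keratins KRT18, KRT8, KRT19 and KRT7. The 12 summed to 5040.5 to 5472 FPKM in control and 5959 to 6243 FPKM in treated libraries. KRT14 was low, at 0.19 to 0.51 FPKM over the 6 libraries, and was not tested. Of the 11 epithelial markers tested, 2 rose and 2 fell at a limma adjusted p under 0.05. Over all tested features 8.59% rose and 15.8% fell. The 10 fibroblast markers summed to 61.0 to 65.8 FPKM in control and 60.6 to 62.8 FPKM in treated libraries. Most of this was COL3A1, at 49.8 to 54.3 FPKM in control and 47.1 to 48.3 FPKM in treated libraries. PDGFRA and PDGFRB were under 0.5 FPKM in every library. Of the 7 fibroblast markers tested, 3 rose and 1 fell at that threshold. The share that rose was above the 8.59% of all tested features, though it rests on only 7 markers. The 3 immune markers found summed to 74.8 to 137 FPKM in control and 96.0 to 150.4 FPKM in treated libraries, nearly all of it CD74, with CD3E under 0.5 FPKM throughout. The 2 endothelial markers found summed to 1.52 to 1.57 FPKM in control and 2.40 to 2.49 FPKM in treated libraries, nearly all of it VWF. VWF was the 1 endothelial marker tested, and it rose, while PECAM1 was under 0.5 FPKM. The smooth muscle markers found (MYH11, DES and CNN1) were all under 0.5 FPKM. The part of other cell types in the values below was not tested.

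The most abundant member was SLC25A3, which brings phosphate into the matrix for ATP synthesis. It stood at 222, 228 and 212 FPKM in control cells, against 227, 215 and 211 FPKM with SQ0048. SLC25A5, an ADP/ATP exchanger of dividing and epithelial cells, came next at 188, 191 and 181 FPKM in control cells, against 212, 198 and 194 FPKM with SQ0048. These carriers lay close together at the top, and SLC25A5 in treated replicate 1 reached the range of SLC25A3. Together they made up 48.6 to 52.1% of the summed FPKM of all members in a library. SLC25A39, needed for glutathione import into mitochondria, followed at 95.9, 79.5 and 74.9 FPKM in control cells, against 90.7, 86.3 and 95.4 FPKM with SQ0048. The citrate carrier SLC25A1, which exports citrate for lipid synthesis, stood at 56.6, 59.4 and 51.4 FPKM in control cells, against 62.1, 62.4 and 55.4 FPKM with SQ0048. The 2-oxoglutarate/malate carrier SLC25A11, part of the malate-aspartate shuttle, was at 27.9, 28.3 and 26.5 FPKM in control cells, against 31.4, 28.5 and 30.01 FPKM with SQ0048. In all, 13 of the 35 features averaged 10 FPKM or more, and 4 averaged less than 2 FPKM. The members summed to 777 to 805 FPKM in control and 822 to 851 FPKM in treated libraries. As a share of all FPKM of a library this was 0.226% ± 0.00252 in control and 0.225% ± 0.00351 in treated cells (SD, n = 3 each), a difference smaller than the spread within either group.

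**Figure D1:**
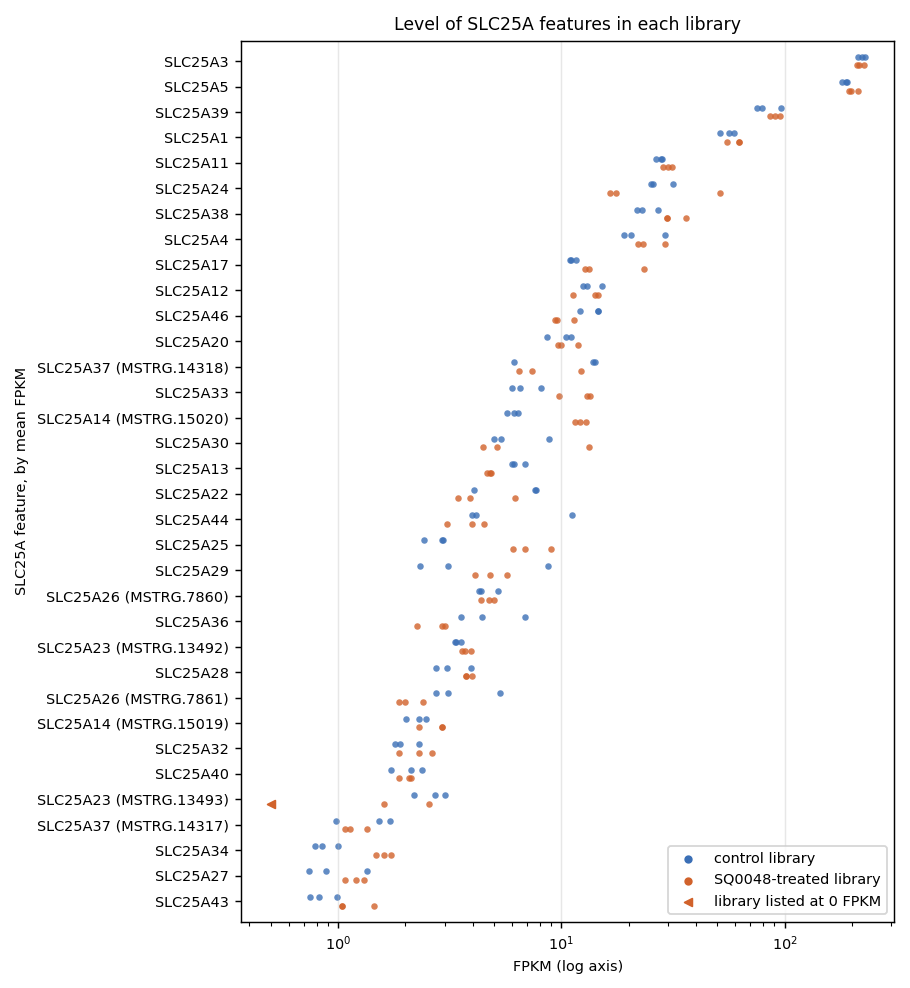
FPKM of the SLC25A features, all members but 1 (rows, ordered by mean; log axis), with 1 point per control or treated library and a triangle at the left edge for a library listed at 0. SLC25A3 and SLC25A5 lie farthest right, SLC25A43 and SLC25A27 lowest, and the points of SLC25A25 and of the SLC25A14 feature MSTRG.15020 separate by group.

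After incubation with the SQ0048 strain the 5 most abundant carriers had log2 fold changes between -0.02 and 0.13, none of them past the threshold, while 6 carriers of middle and low level rose or fell. A feature was said to have risen or fallen at an adjusted p under 0.05 from limma on log2(FPKM + 0.1), with Benjamini-Hochberg adjustment over the 13144 features tested. Of the 35 members, 4 rose (SLC25A25, 1 feature of SLC25A14, SLC25A34 and SLC25A33), 2 fell (SLC25A13 and SLC25A46) and 29 did neither. This was 17.1% of the members, where 24.4% of all tested features were called. By direction, 11.4% of the members were higher and 5.71% lower, against 8.59% and 15.8% of all tested features. Lower calls outnumbered higher ones under each scaling, with 64.7% of all calls lower here, 77.7% as TPM, 51.8% with size factors and 54.5% after quantile normalization. The share of members called was thus no greater than the background. Without the 4 features that lack an Ensembl transcript, 5 of 31 were called. The median log2 fold change was 0.12 over the members and -0.08 over all tested features. The number of members called fell to 2 without control replicate 1 or without treated replicate 3, and to 3 without control replicate 3 or without treated replicate 1. Each treated library lay above each control library for 10 members and below for 4, which is 40.0% of the members. Of all tested features 45.7% had groups apart in this way, 17.4% higher and 28.3% lower. When a 2-fold difference and an unadjusted limma p under 0.05 were asked for instead, 1 member was higher (SLC25A25) and none lower, where 5.52% of all tested features were called, with 2.24% of all tested features higher and 3.28% lower. That count was 2 without control replicate 1 or 3 or treated replicate 1.

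Over all 35 members 22 log2 fold changes were above 0 and 13 below, against 5607 and 7537 of the 13144 tested features. The members' median of 0.12 depended on scaling, at 0.03 as TPM, 0.20 with size factors and 0.16 after quantile normalization. Of the 29 members that did not pass the threshold, 18 had a log2 fold change above 0 and 11 below. For 18 of these 29 the 95% interval of the difference stayed within 1 on the log2 scale, a fold change of 2, in both directions. For the other 11 it reached beyond that, on the lower side alone for 6, on the upper side alone for 3 and on both sides for 2. Of these 2, 1 is the SLC25A23 feature MSTRG.13493, which has a library at 0. An unadjusted p under 0.05 was reached by 9 members, the 6 called and SLC25A38, SLC25A36 and 1 feature of SLC25A26.

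**Figure D2:**
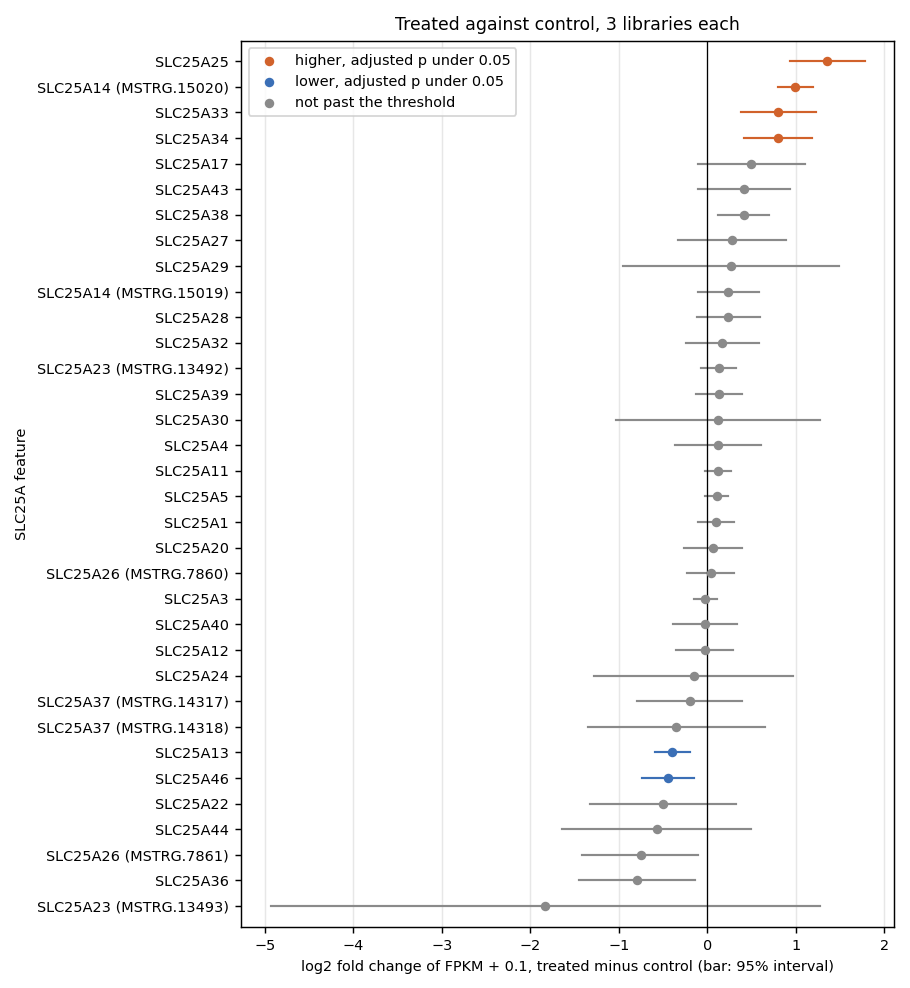
Log2 fold change of FPKM + 0.1 (treated minus control, point) and its 95% interval from limma (bar) for the SLC25A features, all members but 1, colored by the call at an adjusted p under 0.05. SLC25A25 stands highest at 1.35, and the feature of SLC25A23 with 1 library at 0 has the widest interval, from -4.93 to 1.27, fitted with that 0 in place.

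SLC25A25, an ATP-Mg/phosphate carrier whose activity depends on calcium, rose more than any other member. It was at 2.95, 2.93 and 2.42 FPKM in control cells, against 6.04, 9.01 and 6.86 FPKM with SQ0048. All treated libraries lay above all control libraries, with treated replicate 2 the highest. Its log2 fold change was 1.35 (SE 0.17, limma adjusted p = 0.0064), a 2.56-fold rise. The call held in each of the 15 other settings tried, with a log2 fold change between 1.13 and 1.48.

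The related ATP-Mg/phosphate carriers did not show this rise. SLC25A24, the most abundant of them, was at 25.6, 25.1 and 31.8 FPKM in control cells, against 16.6, 51.3 and 17.6 FPKM with SQ0048. Treated replicate 2 thus stood above the control range while the other treated libraries stood below it, and the groups overlapped (log2 fold change -0.15, 95% interval from -1.28 to 0.97, limma adjusted p = 0.840). Without treated replicate 2 the log2 fold change was -0.68 and passed the threshold (limma adjusted p = 0.0263, with 0.0263 to 0.965 across settings), while without treated replicate 1 or 3 it was 0.13 or 0.09. SLC25A23, another carrier of this kind, was at 3.37, 3.54 and 3.33 FPKM in control cells, against 3.94, 3.69 and 3.57 FPKM with SQ0048 for its annotated feature (log2 fold change 0.13, limma adjusted p = 0.308). Its other feature, MSTRG.13493, was at 2.19, 2.72 and 3.02 FPKM in control cells, against 1.6, 2.55 and 0 FPKM with SQ0048. The 0 in treated replicate 3 can be a failed estimate, so no fold is given for it. SLC25A41, the remaining relative, was under the limit of 0.5 FPKM.

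SLC25A33 and SLC25A36 both carry pyrimidine nucleotides into mitochondria, where they are used for DNA and RNA synthesis. SLC25A33 rose from 6.52, 8.09 and 5.99 FPKM in control libraries to 9.75, 13.1 and 13.4 FPKM in treated libraries. The groups did not overlap, and treated replicate 1 was the nearest to the controls (log2 fold change 0.80, SE 0.17, limma adjusted p = 0.0239). This call did not hold once control replicate 1 or 3, or treated replicate 2 or 3, was left out (limma adjusted p = 0.0758, 0.0744, 0.0638 and 0.0772, with 0.0187 to 0.0772 across settings). SLC25A36 was at 3.53, 4.40 and 6.88 FPKM in control cells, against 2.91, 3.0 and 2.25 FPKM with SQ0048. Its groups did not overlap either, with control replicate 3 far above the rest, but the difference did not pass the threshold (log2 fold change -0.79, 95% interval from -1.45 to -0.14, limma adjusted p = 0.0820, with 0.0618 to 0.206 across settings).

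The ADP/ATP exchangers SLC25A5 and SLC25A4, which swap matrix ATP for cytosolic ADP, did not pass the threshold. For SLC25A5 the treated libraries lay just above the control libraries (log2 fold change 0.11, 95% interval from -0.02 to 0.24, limma adjusted p = 0.191), but after quantile normalization the sign turned (log2 fold change -0.01). SLC25A4, the form of heart and muscle, was at 29.3, 19.0 and 20.5 FPKM in control cells, against 29.0, 22.02 and 23.2 FPKM with SQ0048. Replicate 1 was the highest of either group, and the groups overlapped (log2 fold change 0.12, limma adjusted p = 0.676). Among the carriers of cofactors, SLC25A17 of peroxisomes was at 10.9, 11.6 and 11.0 FPKM in control cells, against 23.6, 12.7 and 13.4 FPKM with SQ0048, so that treated replicate 1 carried most of the difference (limma adjusted p = 0.191). Without that library its log2 fold change was 0.22. SLC25A32, of folate and FAD, had a log2 fold change of 0.17 with overlapping groups. In all, 2 of the 11 features of nucleotide and cofactor carriers rose and none fell. This was 18.2% called, against 24.4% of all tested features.

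None of the 6 features of carriers of phosphate, iron and glutathione passed the threshold, and in none were the groups apart. Over all tested features 24.4% passed it and 45.7% had groups apart. SLC25A3 had a log2 fold change of -0.02 (95% interval from -0.15 to 0.11, limma adjusted p = 0.818), whose sign turned with size factors. For SLC25A39 it was 0.13 (95% interval from -0.13 to 0.39), and for its relative SLC25A40, at 1.72 to 2.38 FPKM over the 6 libraries, -0.02. Mitoferrins bring iron into mitochondria for heme and iron-sulfur clusters. Mitoferrin 2, SLC25A28, was at 3.92, 3.06 and 2.74 FPKM in control cells, against 3.96, 3.73 and 3.73 FPKM with SQ0048 (limma adjusted p = 0.278). The annotated feature of mitoferrin 1, SLC25A37, was at 6.16, 14.1 and 13.9 FPKM in control cells, against 6.47, 7.36 and 12.2 FPKM with SQ0048. Here control replicate 1 was as low as the lower treated libraries, and the 95% interval of the log2 fold change ran from -1.35 to 0.65. The second SLC25A37 feature lay lower, at 0.98 to 1.71 FPKM over the 6 libraries.

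Both carboxylate carriers, SLC25A1 and SLC25A11, were slightly higher without passing the threshold (log2 fold changes of 0.10 and 0.12, limma adjusted p = 0.395 and 0.204). The 95% intervals were -0.10 to 0.30 for SLC25A1 and -0.03 to 0.27 for SLC25A11.

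Of 9 features of carriers of amino acids and their derivatives, 1 fell and none rose. This was 11.1% called, against 24.4% of all tested features. SLC25A13 (citrin), a calcium-stimulated aspartate/glutamate exchanger of the malate-aspartate shuttle, was at 6.85, 5.98 and 6.15 FPKM in control cells, against 4.66, 4.85 and 4.79 FPKM with SQ0048. The treated libraries were close together and all below the controls (log2 fold change -0.40, SE 0.08, limma adjusted p = 0.0193). The call of citrin did not hold after quantile normalization (limma adjusted p = 0.0669), nor once control replicate 1 or 3, or treated replicate 1 or 3, was left out (limma adjusted p = 0.0560, 0.0520, 0.0691 and 0.0619, with 0.0139 to 0.0842 across settings). Its relative SLC25A12 (aralar), with the same exchange activity, was at 12.99, 12.5 and 15.2 FPKM in control cells, against 11.3, 14.6 and 14.2 FPKM with SQ0048. These groups overlapped, although treated replicate 1 lay below every control and control replicate 3 above every treated library. The log2 fold change was -0.03 (limma adjusted p = 0.899), with the sign turned by size factors and quantile normalization.

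SLC25A38, which supplies glycine for the first step of heme synthesis, came next to the threshold. It was at 21.8, 23.0 and 27.1 FPKM in control cells, against 29.7, 29.8 and 36.1 FPKM with SQ0048, in a row that also joins a second Ensembl gene. The groups did not overlap, and the log2 fold change was 0.41 (95% interval from 0.12 to 0.70, limma adjusted p = 0.0560). It passed in 3 of the 15 other settings, among them size factors (limma adjusted p = 0.0401) and the filter that kept features averaging 5 FPKM or more (limma adjusted p = 0.0482, with 0.0401 to 0.145 across settings).

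The carrier of S-adenosylmethionine, SLC25A26, which supplies methyl groups to mitochondria, was listed as 2 features. The annotated feature was at 4.35, 5.18 and 4.26 FPKM in control cells, against 5.01, 4.38 and 4.73 FPKM with SQ0048 (log2 fold change 0.04, whose sign turned after rescaling to TPM). The other, MSTRG.7861, was at 2.74, 5.33 and 3.11 FPKM in control cells, against 1.99, 1.88 and 2.39 FPKM with SQ0048 (log2 fold change -0.75, limma adjusted p = 0.0935). Its treated libraries were all below the controls, and control replicate 2 was far above the other controls. In 2 further carriers control replicate 3 stood apart. SLC25A44, a carrier of branched-chain amino acids, was at 3.98, 4.13 and 11.2 FPKM in control cells, against 3.06, 4.48 and 3.99 FPKM with SQ0048. SLC25A29, of basic amino acids, was at 2.33, 3.10 and 8.73 FPKM in control cells, against 5.73, 4.81 and 4.09 FPKM with SQ0048. In both, the groups overlapped, and the log2 fold changes of -0.57 and 0.27 moved to -0.09 and 0.82 without control replicate 3. The glutamate carrier SLC25A22 (log2 fold change -0.50, limma adjusted p = 0.331) and SLC25A20, which brings fatty acylcarnitines into the matrix for oxidation (0.06, limma adjusted p = 0.755), had overlapping groups, and the sign of SLC25A20 turned after rescaling to TPM.

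SLC25A14 is a relative of the uncoupling proteins, and 1 of its features rose. MSTRG.15020, the feature without an Ensembl transcript, rose from 5.69, 6.12 and 6.40 FPKM in control libraries to 11.5, 12.9 and 12.1 FPKM in treated libraries. Its libraries were tight in both groups and far apart between them (log2 fold change 0.99, SE 0.08, limma adjusted p = 0.0023), and the call held in each of the 15 other settings. The annotated feature, MSTRG.15019, was at 2.48, 2.31 and 2.02 FPKM in control cells, against 2.31, 2.91 and 2.92 FPKM with SQ0048. These groups overlapped (log2 fold change 0.24, 95% interval from -0.10 to 0.59, limma adjusted p = 0.258). The difference between the features was not tested, and whether MSTRG.15020 holds reads of SLC25A14 itself or of an overlapping transcript was not tested. SLC25A30, another relative of the uncoupling proteins, was at 5.0, 8.81 and 5.36 FPKM in control cells, against 4.43, 5.14 and 13.3 FPKM with SQ0048. Treated replicate 3 was high, and without it the log2 fold change went from 0.12 to -0.37. SLC25A27 (UCP4), best known from the brain, was low at 0.74 to 1.35 FPKM over the 6 libraries.

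The remaining members were SLC25A34 and SLC25A43, whose substrates are not settled, and SLC25A46. SLC25A34 rose at a low level, from 0.85, 1.0 and 0.79 FPKM in control libraries to 1.47, 1.6 and 1.73 FPKM in treated libraries. Each treated library was above each control (log2 fold change 0.80, SE 0.16, limma adjusted p = 0.0187), and with a pseudocount of 1 the log2 fold change was 0.47. This call did not hold once control replicate 1 or 3, or treated replicate 1 or 3, was left out (limma adjusted p = 0.0589, 0.0512, 0.0514 and 0.0659, with 0.0104 to 0.0808 across settings). SLC25A43 was at 0.99, 0.82 and 0.75 FPKM in control cells, against 1.04, 1.45 and 1.04 FPKM with SQ0048, apart but not past the threshold (limma adjusted p = 0.205). SLC25A46 fell from 14.5, 14.6 and 12.1 FPKM in control libraries to 9.31, 11.4 and 9.53 FPKM in treated libraries, with control replicate 3 and treated replicate 2 nearest to each other. Its log2 fold change of -0.44 (SE 0.12) lay close to the threshold (limma adjusted p = 0.0441). This call did not hold without control replicate 1 or 2, nor without treated replicate 1 or 3 (limma adjusted p = 0.123, 0.114, 0.128 and 0.125). It also did not hold with size factors, quantile normalization, no filter or no trend (limma adjusted p = 0.0719, 0.0827, 0.0589 and 0.0578, with 0.0225 to 0.128 across settings).

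**Figure D3:**
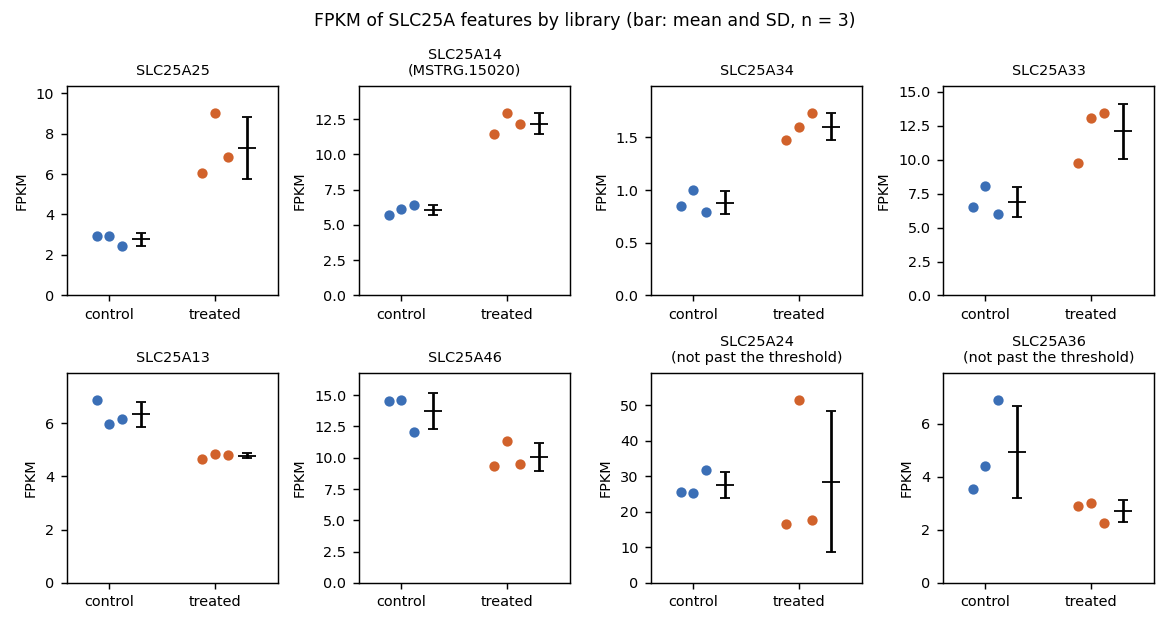
FPKM of the 6 called SLC25A features and of SLC25A24 and SLC25A36, which did not pass the threshold, with 1 point per library and the mean and SD of each group (n = 3) beside the points; each panel has its own axis from 0. The groups of the 6 called features do not overlap, while treated replicate 2 of SLC25A24 stands at 51.3 FPKM above the other treated libraries.

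Ratios of related carriers within a library do not depend on the scaling of that library. Of 7 such pairs, taken on the annotated features and chosen after their values were seen, the groups were apart in 2 and overlapped in 5. SLC25A33 over SLC25A36 was 1.85, 1.84 and 0.871 in control libraries and 3.35, 4.36 and 5.97 in treated libraries (1.52 ± 0.561 and 4.56 ± 1.32, SD, n = 3 each; two-sided exact permutation test on the log2 ratio, p = 0.1, adjusted p = 0.35 over 7 pairs). In each control library these pyrimidine carriers were within a factor of 2 of each other, and in treated cells SLC25A33 was the more abundant in every library. SLC25A24 over SLC25A25 was 8.69, 8.58 and 13.1 in control libraries and 2.74, 5.70 and 2.56 in treated libraries (exact permutation p = 0.1, adjusted p = 0.35). Treated replicate 2, where SLC25A24 was high, also stayed below every control for this ratio. With 3 libraries against 3 this exact permutation test cannot go below p = 0.1, so no pair could pass. SLC25A5 over SLC25A4 was 8.43 ± 1.84 in control and 8.22 ± 0.846 in treated cells (SD, n = 3 each), and SLC25A12 over SLC25A13 was 2.16 ± 0.293 and 2.80 ± 0.324, a difference with overlapping groups.

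**Figure D4:**
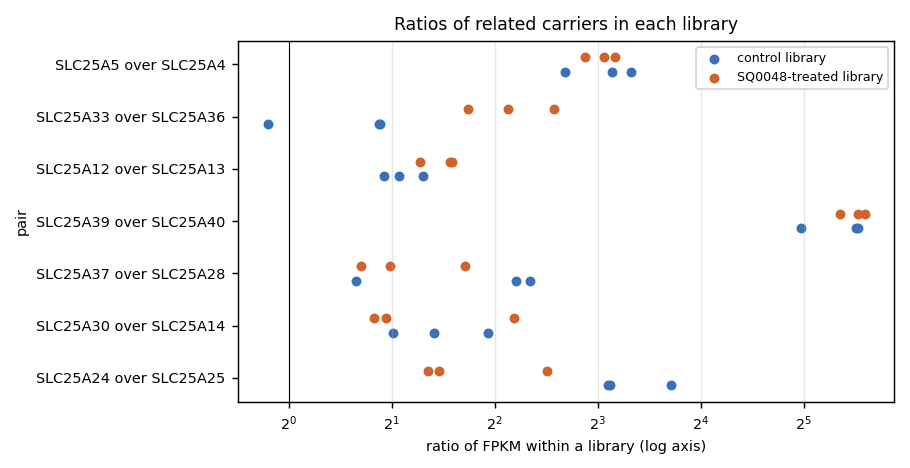
Ratio of the FPKM of related SLC25A carriers within each library (log axis), for 7 pairs, with 1 point per control or treated library and a line at a ratio of 1. The groups are apart for SLC25A33 over SLC25A36 and for SLC25A24 over SLC25A25, and overlap for the other 5 pairs.

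The files attach GO terms to the 31 members with an Ensembl transcript. Of these, 27 were annotated to the mitochondrial inner membrane and 29 to the mitochondrion, SLC25A17 among both, although it also carried the terms for the peroxisome and its membrane. Calcium ion binding was given for 5 members, SLC25A12, SLC25A13, SLC25A23, SLC25A24 and SLC25A25, of which 1 rose (SLC25A25) and 1 fell (SLC25A13). The other 3 did not pass the threshold. ADP transport and ATP transport were each given for 5 members, of which SLC25A25 was the 1 that rose. Over all tested features 8.59% rose and 15.8% fell. With 5 members to a term, 1 call is already a larger share than either, so these shares rest on few members.

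Genes of mitochondrial solute transport, carrier import, ATP synthase and the permeability pore were taken in 8 lists, called the other transport genes below. Of the 41 tested, 5 rose, 5 fell and 31 did neither, with a median log2 fold change of 0.02. The 10 called are 24.4% of these genes, the same share as over all tested features. The lists hold between 2 and 9 genes each, so the share called in any 1 list rests on few genes. Over all tested features 8.59% rose and 15.8% fell. UCP2, an uncoupling protein of the same carrier family under another symbol, rose from 57.7, 58.7 and 58.6 FPKM in control libraries to 73.5, 74.4 and 76.6 FPKM in treated libraries (log2 fold change 0.36, limma adjusted p = 0.0057). MTCH2, a carrier-like insertase of the outer membrane, fell from 38.1, 37.2 and 37.9 FPKM to 29.8, 31.8 and 33.7 FPKM (log2 fold change -0.25, limma adjusted p = 0.0358). Among 5 sideroflexins, amino acid transporters of the inner membrane outside the SLC25 family, 2 fell and none rose. SFXN1, which brings serine into the matrix, fell from 18.5, 16.5 and 16.3 FPKM to 10.5, 11.4 and 11.1 FPKM (log2 fold change -0.62, limma adjusted p = 0.0057), and SFXN2 had a log2 fold change of -0.99 (limma adjusted p = 0.0328). The calls of UCP2 and SFXN1 held in each of the 15 other settings. That of MTCH2 was lost without any single library but treated replicate 3, with size factors and with no trend (limma adjusted p = 0.0217 to 0.132 across settings). That of SFXN2 was lost without any single library but treated replicate 3 and after quantile normalization (limma adjusted p = 0.0257 to 0.1 across settings).

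Of 9 genes of the mitochondrial calcium uniporter and exchangers, 2 fell and none rose, where 15.8% of all tested features fell. MCU, the pore of the uniporter, fell from 41.1, 39.8 and 36.4 FPKM in control to 30.7, 31.6 and 28.3 FPKM in treated libraries (log2 fold change -0.37, limma adjusted p = 0.0191). MICU2, a calcium-sensing gatekeeper of that pore, had a log2 fold change of -0.32 (limma adjusted p = 0.0218). The call of MCU was lost once control replicate 1 or 2, or treated replicate 1 or 3, was left out (limma adjusted p = 0.0629, 0.0569, 0.0587 and 0.0562), and that of MICU2 was lost without any single library but treated replicate 2 (limma adjusted p = 0.0538 to 0.0729). Of 9 genes of ATP synthase and the permeability pore, 4 rose and none fell, where 8.59% of all tested features rose. PPIF, cyclophilin D of the permeability pore, rose from 2.39, 2.73 and 2.24 FPKM to 4.05, 4.81 and 4.02 FPKM (log2 fold change 0.78, limma adjusted p = 0.0097), and its call held in each of the 14 other settings that tested it. The ATP synthase genes ATP5D, ATP5G1 and ATP5G2 had log2 fold changes of 0.50, 0.35 and 0.28 (limma adjusted p = 0.0144, 0.0418 and 0.0151). The call of ATP5D was lost without treated replicate 1 (limma adjusted p = 0.0540), that of ATP5G1 without any single library but control replicate 2 (0.0792 to 0.119) and as TPM, with no filter or with no trend (0.0615, 0.0520 and 0.0589), and that of ATP5G2 without control replicate 1 or treated replicate 3 (0.0554 and 0.0546) and after quantile normalization (0.378).

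No gene was called among the pyruvate carriers, the outer membrane channels, the mitochondrial ABC transporters or the import machinery of carriers. MPC1 and MPC2, which together form the pyruvate carrier, had log2 fold changes of 0.37 and 0.17 (limma adjusted p = 0.145 and 0.226). The channels VDAC1 and VDAC2 overlapped between groups (limma adjusted p = 0.678 and 0.888). ABCB6 and ABCB8 were the most abundant of 4 ABC transporters, with log2 fold changes of 0.23 and 0.00. TOMM20, an import receptor, was at 101, 33.7 and 29.9 FPKM in control cells, against 39.1, 108 and 37.5 FPKM with SQ0048, so that 1 library of each group stood apart. TOMM70, the receptor that hands carriers to the import pore, was at 21.7, 21.9 and 21.7 FPKM in control cells, against 21.96, 23.6 and 20.5 FPKM with SQ0048 (log2 fold change 0.01).

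The limit of 0.5 FPKM fell into a gap between the members' levels. The lowest members inside it, SLC25A43, SLC25A27 and SLC25A34, had means of 1.01, 1.09 and 1.24 FPKM, and the highest rows outside it, SLC25A35, SLC25A41 and SLC25A42, had means of 0.293, 0.278 and 0.25 FPKM. The other 5 rows outside were SLC25A21, SLC25A31, SLC25A45, SLC25A47 and SLC25A53, each at 0.18 FPKM or less in every library. SLC25A31, an ADP/ATP exchanger of the testis, was the lowest, at 0.03 FPKM or less. The spread between the libraries of a group varied among the 35 members, with a coefficient of variation of 2.7 to 74% (median 13.3%) in control and of 2.04 to 93.2% (median 12.9%) in treated libraries. It was over 30% for 8 members in control and for 6 in treated libraries. The 93.2% belonged to the SLC25A23 feature MSTRG.13493, whose treated replicate 3 was at 0.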

How the data were processed

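RNA of 3 control and 3 SQ0048-treated BVEC samples was sequenced. The deposited table gives the expression of each feature as FPKM with 2 decimals. The paper names Cutadapt, Hisat 2.0 and Cufflinks, and StringTie 1.3.0, HISAT2 2.0, Bowtie 0.12.2 and the build ARS-UCD1.2 come from the submitters' processing notes. The paper describes a stranded library kit with dUTP, and no source used here says whether strand was used in the quantification. The authors called genes with edgeR at a fold and p threshold. Those thresholds (a 2-fold difference and p under 0.05) were applied here to limma's unadjusted p, which is another test. FPKM holds no counts, so the depth behind a value, and with it the counting error, is unknown.

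The test was limma 3.58.1 under R 4.3.3 (trended eBayes, two-sided, condition as the only term) on log2(FPKM + 0.1). It covered the 13144 features that averaged 0.5 FPKM or more, with Benjamini-Hochberg adjustment over all of them. The pseudocount makes fold changes of low features an understatement. Related pairs were compared with an exact permutation test in scipy 1.17.1. The procedure was tested on simulated data. Alternatives were a pseudocount of 1 or 0.01, a limit of 5 FPKM or none, TPM, size factors (median of ratios), quantile normalization, no trend, the replicate number as a block, and leaving out each library.

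Values in every library are given for members with an adjusted p under 0.05, members past the thresholds of the study, the 5 most abundant and those with a library at 0. The rule names at most 3 others of each substrate group, but more are named here, chosen after their values were seen. From the other lists, up to 4 called genes are named, or the 2 most abundant. In the import list TOMM20 and TOMM70 are these. Where a symbol names several features, these lists used the most abundant. The members and lists were chosen with earlier results of these data known. The values of 1 member that did not pass the threshold are not reported here, though it stays in the counts.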

Additional observations from a re-analysis of the deposited data

How the results depend on the processing

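Directions of the 6 called members held in every other setting that tested them, 15 each but 14 for SLC25A34, which the limit of 5 FPKM left out. Counts of members called were unchanged under pseudocounts, the higher filter and TPM. With the limit of 5 FPKM 21 members were tested, and SLC25A38 was called while SLC25A34 was left out. There 2210 of all features and 8 of the other transport genes were called, against 3201 and 10 here. Other counts moved as follows. Members at the thresholds of the study numbered 2 with a pseudocount of 0.01, size factors or quantile normalization, since SLC25A14 (MSTRG.15020) lies just under a fold change of 2. Lower members numbered 1 with no filter, size factors or no trend, and 0 after quantile normalization. When 1 library was left out, 2 to 6 members were called (2 to 4 higher, 0 to 3 lower), 1 to 2 passed the thresholds of the study, 4 to 7 of the other transport genes and 1662 to 2966 of all features were called. Among all features 64.7% of the calls were lower, against 77.7% with TPM, 51.8% with size factors and 54.5% after quantile normalization. No scaling moved the median log2 fold change of all features by more than 0.09.

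Replicate numbers were not taken as pairs, since same-numbered libraries did not deviate together (correlations of -0.0124 to 0.0102). With the replicate block, 3 members (0 lower), 4 of the other transport genes and 847 of all features were called. These members were SLC25A25, SLC25A14 (MSTRG.15020) and SLC25A38, the last not called without the block (limma adjusted p = 0.0491). SLC25A33, SLC25A34, SLC25A13 and SLC25A46 were not called with it (limma adjusted p = 0.0599, 0.0808, 0.0842 and 0.0728). With the block SFXN2, MTCH2, MCU, MICU2, ATP5G1 and ATP5G2 also lost their calls (limma adjusted p = 0.0624, 0.102, 0.0526, 0.0856, 0.105 and 0.0684).

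Signs turned only among members that were not called. With size factors SLC25A3 was at 0.06, SLC25A12 and SLC25A40 at 0.05. After quantile normalization SLC25A5 was at -0.01, SLC25A12 at 0.03 and SLC25A40 at 0.12. With TPM SLC25A20 was at -0.03 and SLC25A26 (MSTRG.7860) at -0.05. When 1 library was left out, the lowest and highest values were -0.09 and 0.09 for SLC25A12, -0.14 and 0.08 for SLC25A40, -0.04 and 0.14 for SLC25A20, -0.37 and 0.42 for SLC25A30, -0.68 and 0.13 for SLC25A24, -0.11 and 0.82 for SLC25A29, -0.05 and 0.01 for SLC25A3 and -0.01 and 0.12 for SLC25A26 (MSTRG.7860). The cause of these changes was not tested.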
